A study of Mus musculus with 22 samples.

Results

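The transcripts described here belong to 10 genes that are switched on by low oxygen: Ankrd37, Vegfa, Adm, Egln1, Egln3, Pdk1, Slc2a1, Bnip3, Ddit4 and Ndrg1. They were picked by name with earlier results of these arrays known, above all the low day 1 value of Ankrd37, so their day 1 values are a description and carry no test. Probes were tied to symbols through the RefSeq accession that the array files give them. Of the 10 genes, 9 had a probe, all 9 passed the filter on dim probes, and they are 9 of 15503 genes compared. Ndrg1 was not analysed here.

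The hearts came from 22 female C57BL/6 mice, bought at an age of 5 to 7 weeks and kept for 1 to 3 weeks before a single dose was placed in the trachea under anaesthesia. The 4 groups were 5 vehicle mice and 5 nano-TiO2 mice (162 µg of nanosized titanium dioxide in 40 µl) killed 1 day later, and 6 vehicle mice and 6 nano-TiO2 mice killed 28 days later. The vehicle was saline in water with cell-free lavage fluid from lungs of untreated mice, which the nano-TiO2 mice received as well, and every mouse went through the same anaesthesia and instillation. Heart RNA was labelled with Cy5 and hybridised on an Agilent 2-colour array against Cy3-labelled reference RNA pooled from 11 mouse cell lines, with no dye swap, so the values below are log2 ratios, heart over reference. The text on RNA extraction speaks of lung while the tissue label reads heart. The heart muscle genes Myh6, Tnnt2 and Actc1 lay on average 4.94, 5.64 and 5.94 above the reference in log2 and were well above background on all 22 arrays, while 5 of 7 lung epithelium genes on the array, the surfactant gene Sftpc among them, fell below the filter on dim probes and the other 2 were kept, Scgb1a1 on 6 arrays well above background and Lamp3 on 10.

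Cells sense oxygen through hypoxia-inducible factors, transcription factors made of an oxygen-labile alpha subunit (Hif1a or Epas1) and the stable partner Arnt. While oxygen is plentiful, prolyl hydroxylases of the Egln family mark the alpha subunit, the Vhl protein binds it, and it is destroyed. When oxygen falls the alpha subunit survives, binds a short core sequence near its target genes and switches them on. The targets bring in blood vessels, move metabolism towards glycolysis, thin out mitochondria, slow growth, and include Egln1 and Egln3 themselves, which closes a feedback loop. In the heart, a tissue that lives on oxidative metabolism, this programme is best known from ischaemia.

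The core sequence was looked up in the promoters first, since hypoxia-inducible factors bind it. The genes were picked by name as hypoxia-induced, so a high share with the motif is a description and no independent finding. The letters ACGTG and GCGTG were searched on both strands in the 250 bases before each transcription start of the RefSeq promoter table (GRCm38.p6), with overlapping matches counted separately, so that CACGTG counts as 2. All 9 genes matched the table, with 11 starts. At least 1 match stood before 9 of the 11 starts, which took in each of the 9 genes, against 12679 of 32851 starts (38.6%) over the whole table. Among the starts, 1 of Vegfa and 1 of Pdk1 held none, which says only that these letters are not in those windows. For Vegfa the empty window was the one at the outer end of the gene. Its matches stood before a start within the bounds of the gene, so Vegfa counts as matched through that inner start only. The window of Ankrd37 also lay within the bounds of its gene. Bnip3 had the most matches, with 5, and Ankrd37 had 4. All genes shown carry the motif. With loess, Adm differed in the direction opposite to the other 3, and Egln3 had the smallest p at day 28. Egln1 is the main oxygen sensor, and Bnip3 has the densest run. Each line is an 80-base stretch on the strand of the gene, 5′ to 3′, and capitals mark the matches.
Adm (chr7:110627533-110627612, plus strand, 2 matches): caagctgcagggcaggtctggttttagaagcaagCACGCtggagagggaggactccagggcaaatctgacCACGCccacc
Bnip3 (chr7:138909581-138909660, minus strand, 4 matches): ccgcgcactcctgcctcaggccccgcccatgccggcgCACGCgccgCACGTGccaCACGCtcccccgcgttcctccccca
Egln1 (chr8:124949313-124949392, minus strand, 2 matches): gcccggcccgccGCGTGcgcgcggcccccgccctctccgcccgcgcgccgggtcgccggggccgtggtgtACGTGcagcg
Egln3 (chr12:54204045-54204124, minus strand, 1 match): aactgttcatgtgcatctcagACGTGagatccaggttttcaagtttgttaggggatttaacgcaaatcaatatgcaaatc

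A match is a description of sequence and not a site shown to be bound. Adm holds the GCGTG form and Egln3 the ACGTG form. With loess their differences had opposite signs at day 1, at day 28 and between the vehicle groups. With median centring Egln3 turned positive at day 1 (0.099), below the median of all genes (0.17). Whether the motif has a part in any difference was not tested.

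Several arrays stood apart from their groups in genes of other tissues, and this touches every comparison below. The score of a marker list is the mean over its genes of the log2 ratio minus the mean of that gene over the 22 mice. On 3 arrays (vehicle day 1 replicate 2, nano-TiO2 day 1 replicate 1 and nano-TiO2 day 28 replicate 1) the score of 6 atrial genes ran from -3.18 to -3.08, against -1.97 to 1.18 on the other 19. On 4 arrays (vehicle day 28 replicates 1, 3 and 4, and nano-TiO2 day 1 replicate 2) the score of 6 measured liver genes ran from 1.00 to 3.46, against -1.40 to 0.26 on the other 18. On 2 arrays (vehicle day 28 replicates 1 and 5) the score of 2 measured lung epithelium genes, Scgb1a1 and Lamp3, was 1.74 and 1.70, against -0.45 to 0.12 on the other 20. Those 2 genes did not move together over the groups. Vehicle day 28 differed from vehicle day 1 by 1.18 for Scgb1a1 and -0.27 for Lamp3. Nano-TiO2 differed from vehicle at day 28 by -1.27 and 0.013. Replicate numbers are deposit order and not labels. Vehicle and nano-TiO2 mice of the same number shared a slide in all 6 cases at day 28 and in 4 of 5 at day 1, so slide as a block compares mice within slides. The arrays lay on 9 slides scanned on 3 days, no spot was saturated, and the number of arrays limits the precision of each value. The score of 9 measured adipocyte genes ran from -1.99 to -0.93 in the day 1 vehicle mice, -1.95 to 1.98 in the day 1 nano-TiO2 mice, -0.052 to 2.51 in the day 28 vehicle mice and -1.87 to 1.64 in the day 28 nano-TiO2 mice. The score of 6 endothelial genes, the cells on which Vegfa acts, lay between -0.37 and 0.24 on all 22 arrays. In whole hearts, fewer cells of a type and less RNA per cell cannot be told apart.

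Hypoxia-induced genes split into 2 sets by their order over the 4 groups, and the day 1 vehicle mice stood at an extreme in all 9. They were the highest group for Ankrd37, Vegfa, Bnip3, Egln3, Egln1 and Pdk1 (6 of 9, while they were highest for 29.4% of all genes) and the lowest for Slc2a1, Adm and Ddit4 (3 of 9, against 31.4% of all genes). The nano-TiO2 day 28 mice were neither highest nor lowest for any of the 9, where 12.7% and 18.6% of all genes had them there. This order uses the group means of loess-normalized ratios and carries no test, and with median centring in place of loess 4 of those 6 genes were higher in the day 1 nano-TiO2 mice than in the day 1 vehicle mice. Groups next to each other in the order overlapped in every gene, with the exception of the day 1 and day 28 vehicle groups for Ankrd37, as the plot of values by mouse shows.

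**Figure D1:**
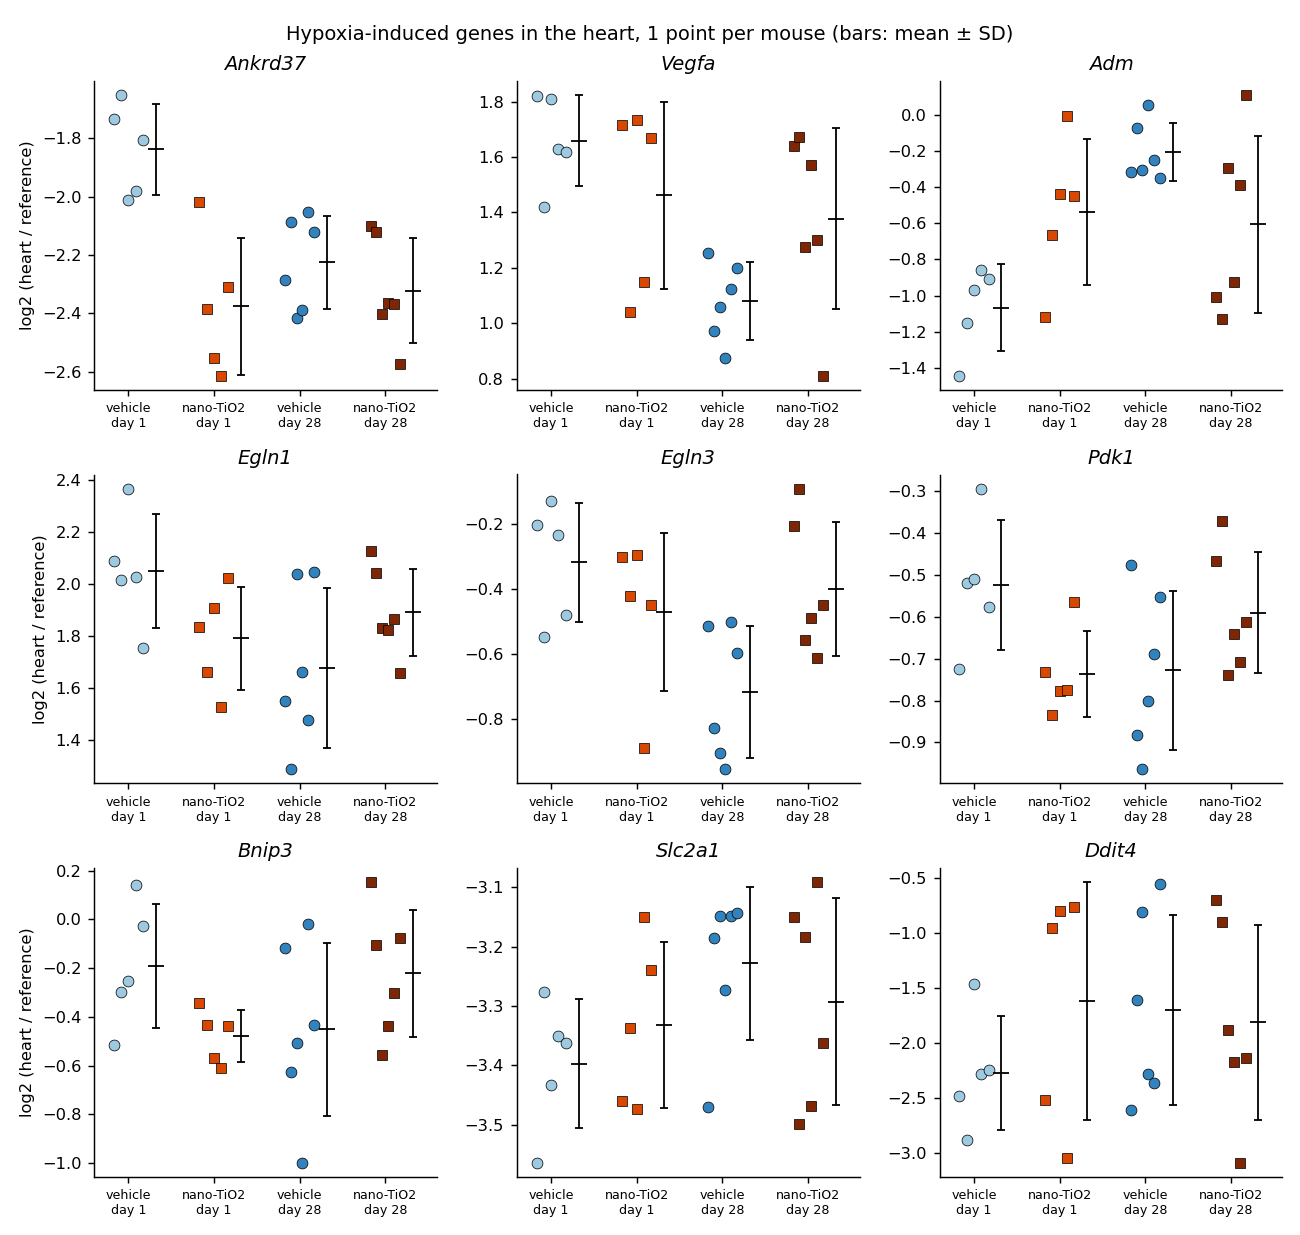
Log2 of heart over reference (vertical axis) for each of 9 hypoxia-induced genes in the 4 groups, 1 point per mouse (5, 5, 6 and 6 mice), with the mean and SD beside the points. The day 1 vehicle mice are the highest group in 6 panels and the lowest in the Adm, Slc2a1 and Ddit4 panels, and Ddit4 has the widest spread.

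The day 1 comparison asks how hearts 1 day after nano-TiO2 differed from hearts 1 day after vehicle. Ankrd37, which encodes a small ankyrin repeat protein and is a direct target of hypoxia-inducible factors, had the clearest separation. The day 1 vehicle mice read -1.73, -1.65, -2.012, -1.98 and -1.81, and the nano-TiO2 mice -2.019, -2.38, -2.55, -2.61 and -2.31. No value of one group reached into the other, although the closest mice were nearly level. The difference was -0.54 ± 0.11 (SE, 5 against 5 mice), a level 1.45-fold lower with nano-TiO2, and 1.69% of all genes had groups that did not overlap. Within the 3 scan days the difference was -0.54, -0.51 and -0.57, and within the 4 slides that held both groups it ran from -0.28 to -0.73. As the groups did not overlap, the negative sign within batches was fixed in advance, and only the sizes are a description.

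The angiogenic growth factor Vegfa and the vasodilator peptide adrenomedullin (Adm) carry the vascular arm of the response, and their day 1 differences had opposite signs. Vegfa read 1.82, 1.42, 1.81, 1.63 and 1.62 in the vehicle mice and 1.71, 1.04, 1.73, 1.15 and 1.67 in the nano-TiO2 mice. The groups overlapped, with a pair of nano-TiO2 mice well below the rest, and the difference was -0.20 ± 0.15 (SE). Adm read -1.44, -1.15, -0.97, -0.86 and -0.91 with vehicle and -1.12, -0.67, -0.44, -0.0065 and -0.45 with nano-TiO2. Only 1 nano-TiO2 mouse, replicate 1, lay within the vehicle range, and the difference was 0.53 ± 0.20 (SE), a 1.44-fold higher level with nano-TiO2.

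The oxygen sensor Egln1 read 2.09, 2.01, 2.37, 2.03 and 1.75 with vehicle and 1.83, 1.66, 1.91, 1.52 and 2.02 with nano-TiO2, so 4 of 5 vehicle mice lay at or above 2 while 1 nano-TiO2 mouse did. Its difference was -0.26 ± 0.14 (SE), and its relative Egln3 differed by -0.15 ± 0.13.

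Pdk1, the kinase that keeps pyruvate from being oxidised in mitochondria, read -0.72, -0.52, -0.51, -0.29 and -0.58 with vehicle and -0.73, -0.84, -0.78, -0.78 and -0.57 with nano-TiO2. Only 1 nano-TiO2 mouse lay within the range of the vehicle mice, at -0.57, and the difference was -0.21 ± 0.098 (SE). The mitophagy receptor Bnip3 ran from -0.52 to 0.14 (median -0.25) with vehicle and from -0.61 to -0.34 (median -0.44) with nano-TiO2, overlapping groups with a difference of -0.29 ± 0.16. The glucose transporter Slc2a1 ran from -3.56 to -3.28 with vehicle and from -3.47 to -3.15 with nano-TiO2, a difference of 0.066 ± 0.092, and had the narrowest spread of the 9 genes over the 22 mice (SD 0.14). Ddit4, an inhibitor of mTORC1 that glucocorticoids induce as well, read -2.48, -2.88, -1.46, -2.28 and -2.24 with vehicle and -2.52, -0.95, -0.80, -3.04 and -0.76 with nano-TiO2. It was high in 3 nano-TiO2 mice and at or below most vehicle mice in the other two, and the difference was 0.65 ± 0.49. Its SD over the 22 mice, 0.84, was the widest of the 9 genes.

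By limma with Benjamini-Hochberg adjustment over all genes, 0 of 9 passed an adjusted p under 0.05 at day 1, as did 0% of all genes, and 3 (Ankrd37, Pdk1 and Adm) had an unadjusted p below that level, against 8.64% of all genes. Lower with nano-TiO2 were 6 of 9 (45.9% of all genes), and 3 of 9 were higher (54.1%). With median centring in place of loess, which moved the median of all genes to 0.17, Vegfa (0.059), Bnip3 (0.044), Egln3 (0.099) and Pdk1 (0.020) turned positive while staying below that median, and Ankrd37 (-0.25) and Egln1 (-0.065) stayed negative. The list was chosen with this comparison known, and nothing is read from the count of directions or from the count at an unadjusted p. The median difference was -0.20 for the 9 genes and 0.014 for all genes. The Ankrd37 difference was -0.63 without nano-TiO2 day 1 replicate 1, -0.58 without the 3 arrays low in atrial genes (an alternative chosen after seeing the data) and -0.97 with the log ratios of the scanner software. In those settings 21, 35 and 7 of all genes passed the threshold, Ankrd37 among them, which is no support for a gene picked on this comparison. Marker lists differed between the same mice: the adipocyte score by 1.91 (9 of 9 measured genes higher with nano-TiO2), the smooth muscle score by 1.17 (6 of 6 higher), the atrial score by 1.23 (6 of 6 higher), the glucocorticoid response score by 0.45 (9 of 9 measured genes higher), the immediate early score by 0.45 (9 of 10 higher) and the score of 6 cardiomyocyte genes by -0.082. Their part in these differences was not tested here.

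**Figure D2:**
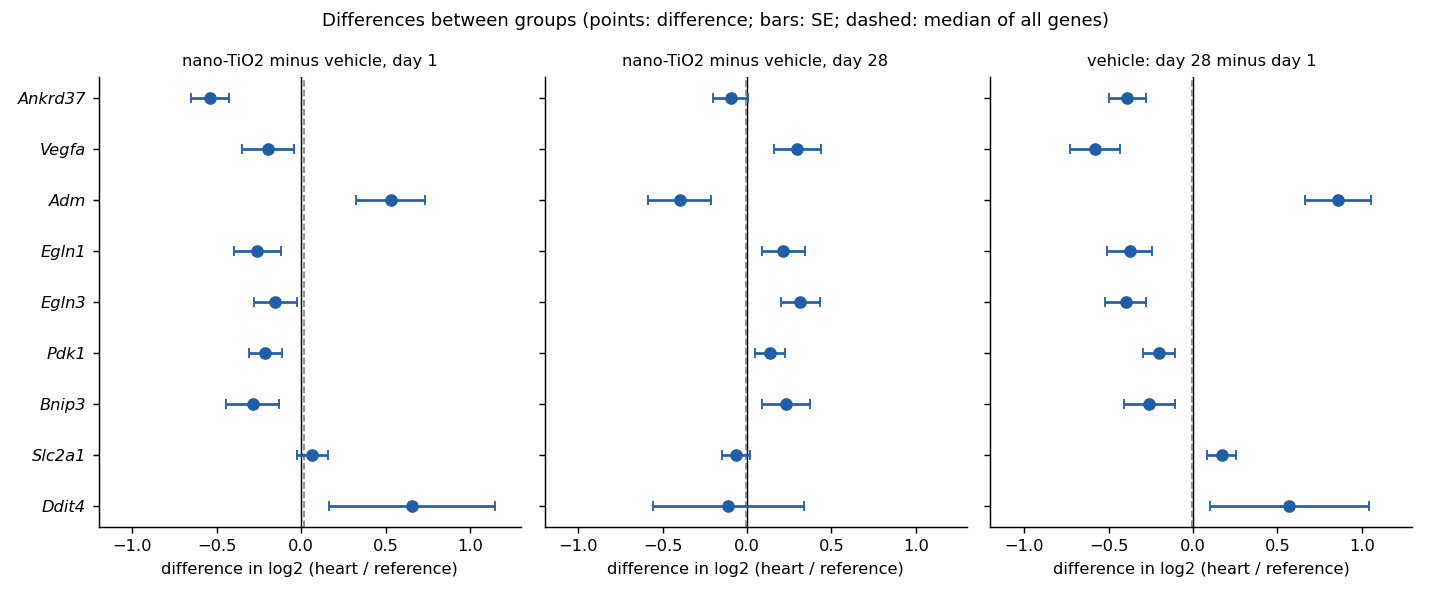
Difference in log2 of heart over reference (horizontal axis) for 9 hypoxia-induced genes in 3 comparisons, with bars for the SE and a dashed line at the median of all 15503 genes. Adm lies on the other side of 0 from Vegfa, Egln1, Egln3, Pdk1 and Bnip3 in each panel, and those 5 genes lie below 0 at day 1 (4 of them above 0, yet below the median of all genes, with median centring) and above 0 at day 28 (all but Pdk1, at -0.00057, with median centring).

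The day 28 comparison used other mice, and here the genes were tested. None of the 9 passed, and the differences were small. Egln3, a prolyl hydroxylase prominent in heart muscle, had the smallest p. It ran from -0.96 to -0.50 (median -0.71) in the 6 vehicle mice and from -0.61 to -0.090 (median -0.47) in the 6 nano-TiO2 mice. The nano-TiO2 group lay higher, but the groups overlapped, with a difference of 0.32 ± 0.12 (SE) and an adjusted p of 0.635 by limma over all genes. That is a level 1.25-fold higher with nano-TiO2.

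The differences of Vegfa and Adm again had opposite signs, each the reverse of day 1 with loess. Vegfa ran from 0.87 to 1.25 (median 1.09) with vehicle and from 0.81 to 1.67 (median 1.44) with nano-TiO2, where 5 of 6 mice lay above every vehicle mouse and the other below them all. The difference was 0.30 ± 0.14 (SE; limma adjusted p = 0.654). Adm ran from -0.35 to 0.054 (median -0.28) with vehicle and from -1.13 to 0.11 (median -0.66) with nano-TiO2, a difference of -0.40 ± 0.19 (limma adjusted p = 0.654). The vehicle mice lay within the range of the nano-TiO2 mice, whose SD of 0.49 was wider than the 0.16 of the vehicle group.

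Egln1 ran from 1.29 to 2.04 (median 1.60) with vehicle and from 1.66 to 2.12 (median 1.85) with nano-TiO2, overlapping groups with a difference of 0.21 ± 0.13 (SE; limma adjusted p = 0.710). Bnip3 ran from -0.9985 to -0.019 (median -0.47) with vehicle and from -0.56 to 0.15 (median -0.20) with nano-TiO2, a difference of 0.23 ± 0.14 (limma adjusted p = 0.735). Pdk1 differed by 0.14 ± 0.090 (limma adjusted p = 0.750), and its groups overlapped as well. Ankrd37, the gene with the largest separation at day 1, ran from -2.41 to -2.05 with vehicle and from -2.57 to -2.10 with nano-TiO2, a difference of -0.097 ± 0.10 (limma adjusted p = 0.860). These groups lay nearly level. Slc2a1 differed by -0.064 ± 0.084 and Ddit4 by -0.11 ± 0.45, with Ddit4 spanning -3.09 to -0.70 among nano-TiO2 mice and -2.60 to -0.55 among vehicle mice.

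Limma adjusted p ran from 0.635 to 0.968 over the 9 genes. The count past the threshold was 0 of 9 (0% of all genes), groups that did not overlap numbered 0 (0.123% of all genes), and 3 genes (Vegfa, Egln3 and Adm) had an unadjusted p below 0.05, against 7.58% of all genes. Higher with nano-TiO2 were 5 of 9 (47.3% of all genes) and lower 4 of 9 (52.7%). The median was 0.14 for the 9 genes and -0.0076 for all genes.

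The day 28 differences were uneven over batches. The median over the 9 genes was 0.018, 0.40 and -0.039 within the 3 scan days, each of which held 2 vehicle and 2 nano-TiO2 mice. For Vegfa these were 0.46, 0.54 and -0.11, for Egln3 0.41, 0.52 and 0.018, and for Adm -0.48, -0.87 and 0.16. With scan day as a block, 0 of 9 genes passed, as with slide as a block. The day 28 groups also differed in marker scores: the adipocyte score differed by -1.46 (9 of 9 genes lower with nano-TiO2), the smooth muscle score by -0.79 (5 of 6 lower) and the liver score by -1.65 (6 of 6 lower), and the cardiomyocyte score by 0.14 (6 of 6 higher). Their part in the differences was not tested, and without the 4 arrays high in liver genes Vegfa differed by 0.28, Egln3 by 0.24 and Adm by -0.38. Without the 2 vehicle arrays high in the lung epithelium score (chosen after seeing the data), 0 of 9 genes passed. Bnip3 then stood at 0.42, Egln3 at 0.42, Vegfa at 0.35, Adm at -0.44 and Ddit4 at -0.50.

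Signs at the 2 days were opposite for 8 of the 9 genes, all but Ankrd37, where 63.3% of all genes had opposite signs. With median centring, which put the median of all genes at 0.17 at day 1 and -0.096 at day 28, the count was 5 of 9 against 80.5% of all genes. Relative to that shifted median, 3 of the 9 genes lay above it and 6 below it at day 1, and 5 above and 4 below at day 28, the same counts as with loess. The difference between the day 28 and day 1 effects contains the day 1 comparison and is given as a description. It was largest for Adm, at -0.93 ± 0.28 (SE), and lay between 0.35 and 0.52 for Ankrd37, Vegfa, Bnip3, Egln3, Egln1 and Pdk1. By limma, 0 of 9 passed after adjustment (0% of all genes), and 7 had an unadjusted p below 0.05 (14.6% of all genes).

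The vehicle mice themselves differed between the days, and this comparison shares its day 1 mice with the first, so it too is a description. The groups are separate mice, so fell and rose compare groups and do not follow a mouse over time. Age and time since instillation differ together between the days and cannot be told apart. That holds for the nano-TiO2 groups too. Vegfa fell from 1.66 ± 0.16 (SD, n = 5) to 1.08 ± 0.14 (n = 6), with no overlap, a drop of 0.58 ± 0.15 (SE) in log2 or 1.49-fold. Ankrd37 fell by 0.39 ± 0.11 with no overlap, and Egln3 fell by 0.40 ± 0.12. Adm rose from -1.07 ± 0.24 (SD) to -0.21 ± 0.16, by 0.86 ± 0.20 (SE), or 1.82-fold, and every day 28 vehicle mouse lay above every day 1 vehicle mouse. Egln1 (-0.37 ± 0.13), Pdk1 (-0.20 ± 0.094), Bnip3 (-0.26 ± 0.15), Slc2a1 (0.17 ± 0.088) and Ddit4 (0.57 ± 0.47) did not pass. With limma, 4 of 9 genes had an adjusted p under 0.05, against 10.4% of all genes: 3 were lower at day 28 (3.46% of all genes) and 1 higher (6.92%). An unadjusted p below 0.05 was found for 6 of 9 (25.4% of all genes), and 3 of 9 had groups that did not overlap, against 7.03%.

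All 4 calls between vehicle groups were lost in 4 alternative analyses, although the differences kept their sign in each. With slide as a block, where 0 of all genes passed, Vegfa differed by -0.50, Adm by 0.80, Ankrd37 by -0.37 and Egln3 by -0.38. Without the 4 arrays high in liver genes, 3 of which are day 28 vehicle mice (also chosen after seeing the data), 0 of all genes passed and the values were -0.56, 0.84, -0.25 and -0.32. With normexp fitted on all spots they were -0.54, 0.82, -0.36 and -0.32, and with median centring -0.31, 1.06, -0.14 and -0.14, where the median of all genes moved to 0.13 and Bnip3 (0.014) and Pdk1 (0.031) turned positive. In these 2 settings 78 and 87 of all genes passed, against 1610 (10.4%) in the fit above. Without vehicle day 1 replicate 1 or vehicle day 28 replicate 4, 2 of the 9 genes passed, where 1076 and 954 of all genes did. Without the 2 arrays high in the lung epithelium score 3 of 9 passed, Ankrd37 (-0.42) no longer among them, and 746 of all genes did. The adipocyte scores of the vehicle groups, given above, did not overlap between the days. The smooth muscle score ran from -1.25 to -0.63 and from 0.37 to 1.12 in these groups, and the cardiomyocyte score from -0.042 to 0.33 and from -0.44 to -0.016. Their part in the differences was not tested.

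Between the nano-TiO2 groups no gene passed. Differences of day 28 from day 1 ran from -0.20 ± 0.47 (SE) for Ddit4 to 0.26 ± 0.15 for Bnip3. By limma, 0 of 9 passed (0% of all genes), 0 of 9 had an unadjusted p below 0.05, against 4.54% of all genes, and 0 of 9 had groups that did not overlap, against 0.761%. The median was 0.053 for the 9 genes and -0.019 for all genes.

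Separate probes of a gene gave different sizes. The Vegfa values above come from the brightest of 3 probes. The other 2, which are annotated to another RefSeq transcript of the gene, differed by -0.029 and 0.012 at day 1, by 0.082 and 0.036 at day 28, and by -0.25 and -0.27 between the vehicle groups. They thus kept the direction of the vehicle comparison at under 0.5 of its size, and at day 1 lay close to 0. The second Egln1 probe differed by -0.12 at day 1, 0.018 at day 28 and -0.18 between vehicle groups, less than the first in each. The other genes had 1 probe each.

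The genes that run the oxygen sensor were measured beside their targets. Of 17 listed genes, 12 were measured, while Epas1, Arnt, Arnt2 and Crebbp fell below the filter on dim probes. By limma 0 of the 12 passed in any comparison, where 10.4% of all genes passed between the vehicle groups and 0% in the others. An unadjusted p below 0.05 was found for 1 at day 1 (8.64% of all genes), 1 at day 28 (7.58%) and 2 between the vehicle groups (25.4%). These counts are near or below those shares. Between the vehicle groups 1 passed without vehicle day 1 replicate 5 or without vehicle day 28 replicate 3 or 6, where 1647, 1658 and 2069 of all genes did. Higher with nano-TiO2 were 5 of 12 at day 1 and 9 of 12 at day 28. Hif1a, the main labile subunit, differed by 0.030 ± 0.13 (SE) at day 1, 0.25 ± 0.12 at day 28 (limma adjusted p = 0.654) and -0.33 ± 0.12 between the vehicle groups. Siah1a, a ubiquitin ligase of the Egln proteins, differed by 0.23 ± 0.10 at day 1. Egln2, the third prolyl hydroxylase and the one that hypoxia does not induce, differed by -0.027 ± 0.094 at day 1, 0.027 ± 0.086 at day 28 and 0.020 ± 0.090 between the vehicle groups. Egln3 and the brighter Egln1 probe had larger values, given above, while the second Egln1 probe stood at 0.018 at day 28. Whether these sizes go with induction by hypoxia was not tested. Medians of the 12 genes were -0.034, 0.10 and -0.067 in these comparisons.

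A further list of 55 hypoxia-induced genes had 52 measured members, and Car9, Car12 and Epo fell below the filter. At day 1, 23 were higher with nano-TiO2 (54.1% of all genes were) and 29 lower, with 0 past the threshold and 6 at an unadjusted p below 0.05 by limma, near the 8.64% of all genes. The largest positive differences were those of Angptl4, a lipoprotein lipase inhibitor (1.39 ± 0.56, SE), and Tgfb3 (0.57 ± 0.23), and the largest negative ones those of the collagen-crosslinking enzyme Loxl2 (-0.31 ± 0.13) and the mitochondrial protein Higd1a (-0.23 ± 0.13). At day 28, 35 were higher (47.3% of all genes were) and 17 lower, with 0 past the threshold and 3 at an unadjusted p below 0.05 by limma, near the 7.58% of all genes. The glycolytic enzyme Aldoa (0.39 ± 0.16) and the VEGF receptor Kdr (0.27 ± 0.14) had the largest positive differences, and Pfkfb3, which drives glycolysis by making fructose 2,6-bisphosphate (-0.97 ± 0.33, limma adjusted p = 0.635), and Pgam1 (-0.25 ± 0.14) the largest negative ones.

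Between the vehicle groups 7 of the 52 passed (10.4% of all genes, 1610). Without vehicle day 1 replicate 1, 2 or 3 or vehicle day 28 replicate 2, 4 or 5, 2 to 4 did, where 949 to 1196 of all genes passed. None of the 52 passed with slide as a block, normexp on all spots or median centring. The same held without the arrays high in liver genes and without those high in the lung epithelium score. Over all genes 0, 78, 87, 0 and 746 passed in these settings, in the same order. In the fit of all arrays, hexokinase 2 (Hk2, -0.42), Higd1a (-0.45), the mitochondrial protein Fam162a (-0.34) and the oxidase Ero1a of the endoplasmic reticulum (-0.33) fell from day 1 to day 28. Pfkfb3 (1.39), Tmem45a (0.70) and the glycolytic mutase Pgam1 (0.44) rose. This list held members of both directions, as the 9 genes did, and its median was -0.071 against -0.26 for the 9 genes, while its mean was 0.024. Over the 52 genes the medians with nano-TiO2 were -0.023 at day 1 and 0.054 at day 28, closer to those of all genes (0.014 and -0.0076) than the medians of the 9 genes were.

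Variation between mice of the same group gave a view in which the group differences do not enter. Each gene's log2 ratio was taken minus its group mean, and the 36 pairs of 9 genes were correlated over 22 mice with permutation p within groups, adjusted over the 36 pairs. Vegfa and Egln1 entered through their brightest probe, and their other probes were not correlated, here or with the marker scores below. By Pearson's r, 6 pairs passed, 4 positive and 2 negative. The most negative was that of Ankrd37 and Adm (r = -0.74, permutation p = 0.00052, adjusted 0.0187; Spearman's rho = -0.69, permutation p = 0.00183, adjusted 0.0329), so mice with more Ankrd37 than their group had less Adm. Without the 2 mice farthest from the median of Ankrd37, r was -0.64. Vegfa and Adm followed (r = -0.70, permutation p = 0.00403, adjusted 0.0315; rho = -0.67, permutation p = 0.00712, adjusted 0.0473; r = -0.72 without 2 mice).

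On the positive side, Vegfa varied with Egln3 (r = 0.64, permutation p = 0.00191, adjusted 0.0315; rho = 0.70, permutation p = 2e-04, adjusted 0.0072; r = 0.86 without 2 mice). It went with Egln1 as well (r = 0.55, permutation p = 0.00437, adjusted 0.0315; rho = 0.60, permutation p = 0.00348, adjusted 0.0418; r = 0.51 without 2 mice). The mitochondrial pair Bnip3 and Pdk1 went together (r = 0.64, permutation p = 0.00795, adjusted 0.0477; rho = 0.66, permutation p = 0.00496, adjusted 0.0446; r = 0.72 without 2 mice), as did Egln1 and Ddit4 (r = 0.64, permutation p = 0.00299, adjusted 0.0315; rho = 0.58, permutation p = 0.0118, adjusted 0.0473; r = 0.55 without 2 mice). Slc2a1 passed with no other gene. With 1 mouse left out, r of these 6 pairs kept its sign (Ankrd37 with Adm from -0.79 to -0.67, Vegfa with Adm from -0.82 to -0.57). The number of pairs passing was not stable and ran from 1 to 10. It was 1, a negative pair, without vehicle day 28 replicate 6, nano-TiO2 day 1 replicate 4 or nano-TiO2 day 28 replicate 1 or 2. It was 2 without nano-TiO2 day 1 replicate 1, 3 without nano-TiO2 day 28 replicate 3 or 6, and 10 without vehicle day 1 replicate 3.

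These correlations depend on how an array is scaled. With median centring in place of loess 34 of 36 pairs passed, all positive, and Ankrd37 with Adm turned to 0.48 and Vegfa with Adm to 0.42. With the log ratios of the scanner software they were -0.79 and -0.63, and with scan day means subtracted as well -0.71 and -0.76.

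**Figure D3:**
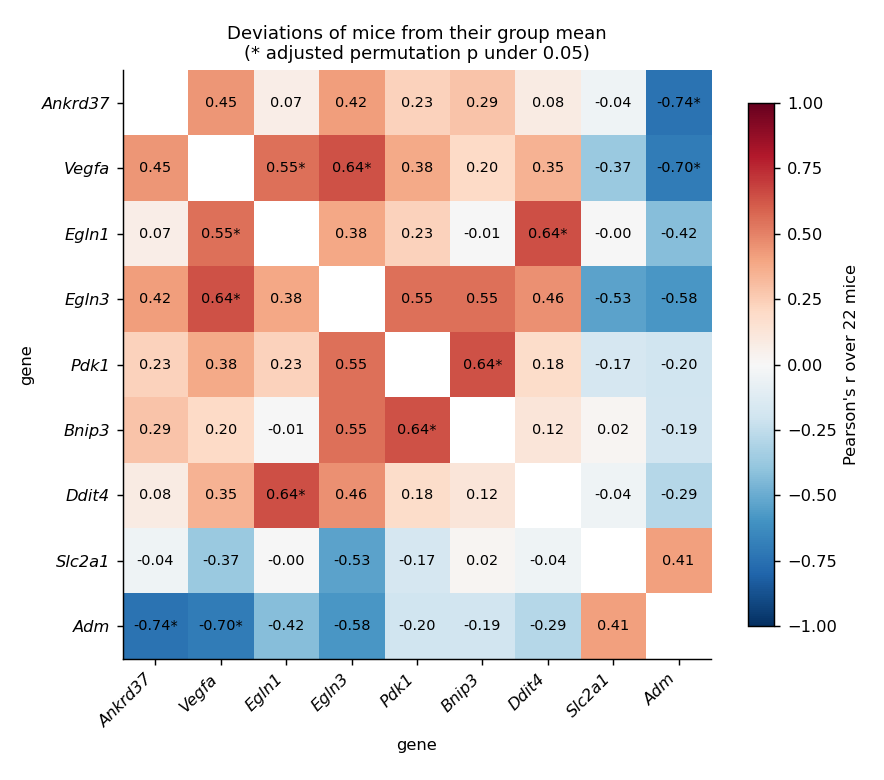
Pearson's r between pairs of 9 hypoxia-induced genes over 22 mice, each value minus its group mean, with genes on both axes and colour for r from -1 to 1. Stars mark the 6 pairs with an adjusted permutation p under 0.05, 4 positive (red) and 2 negative (blue), both of the negative ones with Adm.

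Adm and Egln1 also followed the marker lists of other tissues from mouse to mouse, and other genes had r of similar size that did not pass. These relations were chosen after the values were seen, and 45 were computed, between 9 genes and 5 lists, with group means subtracted and p adjusted over the 45. The adjusted p does not cover the choice of lists. The relations were not rerun with another scaling or with each mouse left out in turn. Adm was higher where the smooth muscle score was higher (r = 0.74, permutation p = 0.00421, adjusted 0.0409; rho = 0.74, permutation p = 0.00385, adjusted 0.0442; r = 0.65 without the 2 mice farthest from the median score). With the adipocyte score it had r = 0.73 (permutation p = 0.00201, adjusted 0.0409) and rho = 0.58 (permutation p = 0.0193, adjusted 0.106), so by rank the relation did not pass, and r without 2 mice was 0.62. Egln1 ran against both scores, with r = -0.54 for smooth muscle (permutation p = 0.00328, adjusted 0.0409; rho = -0.61, permutation p = 0.00228, adjusted 0.0442; r = -0.59 without 2 mice) and r = -0.62 for adipocytes (permutation p = 0.00223, adjusted 0.0409; rho = -0.74, permutation p = 0.00047, adjusted 0.0211; r = -0.63 without 2 mice).

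Ddit4 was the 1 gene of the 9 to pass with the score of 9 measured glucocorticoid-induced genes (r = 0.66, permutation p = 0.00454, adjusted 0.0409; rho = 0.67, permutation p = 0.00393, adjusted 0.0442; r = 0.58 without 2 mice). Ankrd37 passed with none of the 5 lists, with r of similar size for 3 of them. These were the cardiomyocyte score (r = 0.56, permutation p = 0.0128, adjusted 0.0931; rho = 0.52, permutation p = 0.0236, adjusted 0.106; r = 0.47 without 2 mice), the adipocyte score (r = -0.56, permutation p = 0.0213, adjusted 0.0931; rho = -0.42, permutation p = 0.0902, adjusted 0.271; r = -0.36 without 2 mice) and the smooth muscle score (r = -0.55, permutation p = 0.0229, adjusted 0.0931; rho = -0.48, permutation p = 0.0479, adjusted 0.166; r = -0.26 without 2 mice). Vegfa had r = -0.63 with the smooth muscle score (permutation p = 0.0152, adjusted 0.0931) and rho = -0.66 (permutation p = 0.00817, adjusted 0.0735). With the adipocyte score it had r = -0.58 (permutation p = 0.0246, adjusted 0.0931). Egln3 had r = -0.56 with the smooth muscle score (permutation p = 0.0188, adjusted 0.0931). None of these passed. Only Slc2a1 shared the positive sign of Adm, with 0.23 for smooth muscle and 0.14 for adipocytes. Of the 5 lists, the glucocorticoid one shares Cdkn1a with the further hypoxia-induced list. The values and the scores come from the same arrays and share their normalization.

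**Figure D4:**
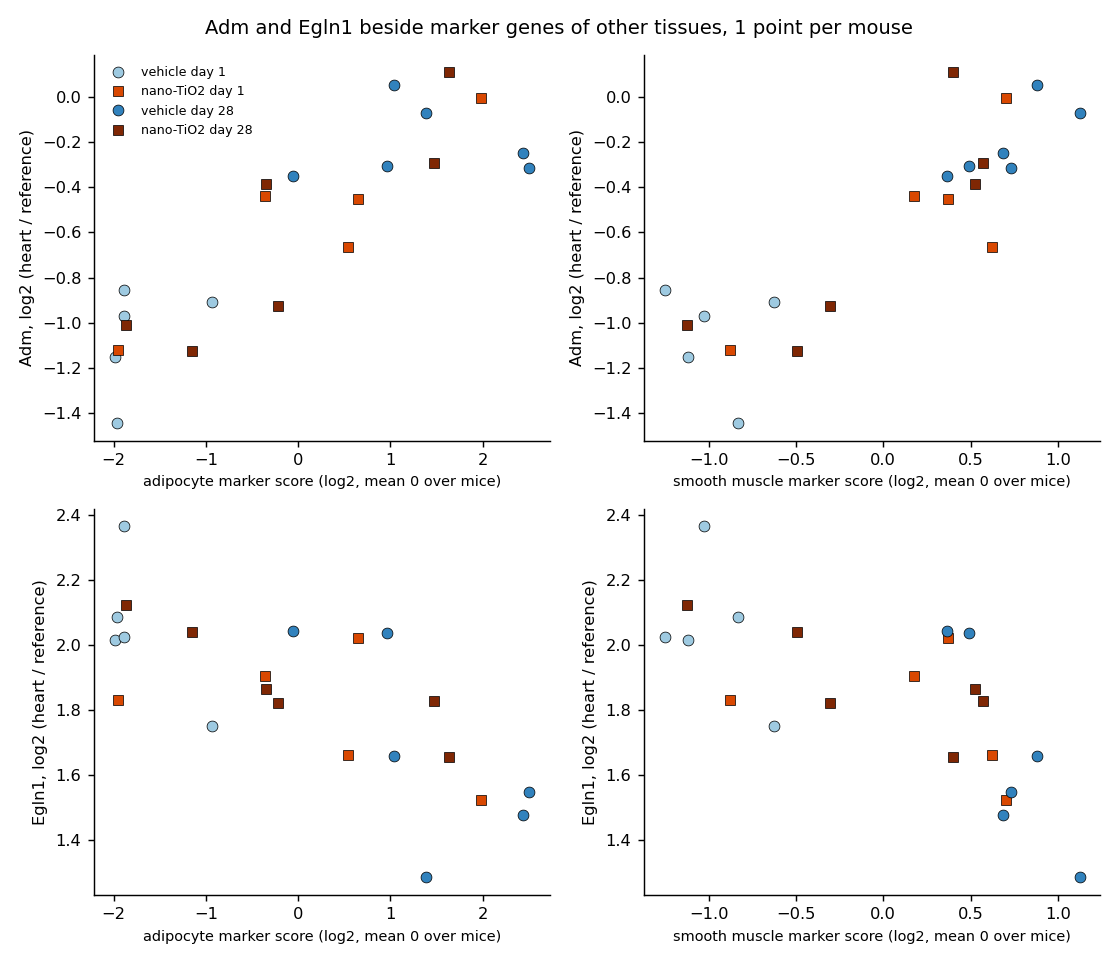
Log2 of heart over reference of Adm (upper row) and Egln1 (lower row) against the adipocyte (left) and smooth muscle (right) marker scores in log2, 1 point per mouse, with colour and shape for the 4 groups. Adm rises with both scores and Egln1 falls, and the day 1 vehicle mice lie at the low end of both scores.

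Outside the chosen genes, those whose deviations from group means were most like those of Ankrd37, over 22 arrays and 10330 genes with a symbol and a value on every array, were Hint3 (r = 0.83), Gtf3c4 (r = 0.83) and Zfp944 (r = 0.82).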

How the data were processed

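Per the labels, heart RNA (Cy5) and reference RNA (Cy3) were hybridised on 22 arrays, 1 mouse each. The deposited scanner files hold median spot and local background intensity in both channels, and a log10 ratio made, per the file headers, by Agilent Feature Extraction 10.7.3.1; the submitters' processing notes name 9.5.3.1. The authors' deposited series matrix is on a log2 scale with its method not given in the sources used here; its columns have medians from -0.036 to -0.021 and correlate at r of 0.992 or more with loess log2 ratios made without background subtraction.

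Log2 ratios were computed with R 4.3.3 and limma 3.58.1: normexp background correction (offset 50, fitted without spots marked for uneven background, a choice known from earlier work on these arrays), then loess with control spots at weight 0. Spots marked as uneven or outlying (0.299%) were left out and spots of 1 probe averaged. The filter kept 19275 probes that 5 or more arrays marked as well above background in the heart channel. Each gene was represented by the brightest of these in Cy5 (15503 genes, 10477 with a symbol; 23374 probes matched a RefSeq symbol). Limma used a mean per group, eBayes and Benjamini-Hochberg adjustment over all genes. Labels say biological replicates. Correlations used Python 3.11.15 with 100000 permutations within groups (10000 when 1 mouse was left out). The fit was tested on simulated data.

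The members and lists were chosen with earlier results of these data known. All measured members are named, with the further-list genes of largest difference or past the threshold and the 3 genes most like Ankrd37. Promoters and symbols come from RefSeq. Alternatives covered background, scaling, ratio source, filter, probe summary, batch blocks, moderation and left-out mice.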

Additional observations from a re-analysis of the deposited data

Results flagged for a closer look

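Egln3 in nano-TiO2 day 1 replicate 4 read -0.89, while the other 4 mice of that group lay between -0.45 and -0.30. The gap to the nearest mouse was larger than Dixon's 95% critical value for a group of 5. This was the 1 such value among 36 groups of mice looked at (9 genes in 4 groups), and chance flags about 1 in 20 groups.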

How the results depend on the processing

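Counts of members past the threshold at day 28, and between the nano-TiO2 groups, were 0 under every alternative run. The day 28 differences changed sign for Ankrd37 (0.10) and Slc2a1 (0.079) with normexp fitted on all spots, for Pdk1 (-0.00057) with median centring, and for Ddit4 without vehicle day 28 replicate 3 (0.069) or 6 (0.12) or nano-TiO2 day 28 replicate 5 (0.15), its range over left-out mice being -0.33 to 0.15; the cause was not tested. At day 1 the count became 1 with scanner ratios and without the 3 arrays low in atrial genes, where 7 and 35 of all genes passed. Between vehicle groups, members called went from 4 to 2 with plain background subtraction and to 0 with normexp on all spots, median centring, slide as a block or without the 4 arrays high in liver genes. Calls over all genes went from 1610 to 1569, 78, 87, 0 and 0 in these settings, in the same order. Further hypoxia-induced genes called went from 7 to 0 under the same 4 that left no member called. They also went to 0 without the 2 arrays high in the lung epithelium score, where 746 of all genes passed. They went to 20 with scanner ratios, where 3863 of all genes passed, and to 4 with no filter, where 1231 of the larger unfiltered set did. Oxygen-sensing genes called went from 0 to 2 (scanner ratios) or 1 (Cy5 alone, or the mean of probes, where 1729 and 1555 of all genes passed). Median centring moved the median of members to 0.059 at day 1, 0.014 between vehicle groups, -0.11 between nano-TiO2 groups and 0.023 for the difference of effects, which normexp on all spots put at 0.24. Pairs of members passing went from 6 to 10 with scan day subtracted and 34 with median centring.

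Leaving out each mouse, the median of members ran from -0.25 to -0.12 at day 1, 0.090 to 0.19 at day 28, -0.34 to -0.18 between vehicle groups, 0.0093 to 0.11 between nano-TiO2 groups and 0.37 to 0.49 for the difference of effects. Members called ran from 0 to 1 at day 1 and for the difference of effects. The 1 came without nano-TiO2 day 1 replicate 1, where 21 and 316 of all genes passed. Between vehicle groups members called ran from 2 to 5. The 2 came without vehicle day 1 replicate 1 or vehicle day 28 replicate 4, where 1076 and 954 of all genes passed. Further genes called between vehicle groups ran from 2 to 10 and oxygen-sensing genes from 0 to 1, while calls over all genes ran from 949 to 2069. Pairs ran from 1 to 10. In the 300-base window 9 of 11 member starts held a match, as in the 250-base one, while the share over all starts was 43.8%. The sample titles carry a sample number, but the replicate numbers used here are deposit order, so no fit by replicate number was made. Slide as a block, which compares mice within slides, gave 0 members past the threshold in each comparison.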
